A study of Mus musculus with 3 samples.

Results

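The cells described here are the cells of culture days 4 and 7 in which at least 1 transcript of Tcf21 was counted. They were chosen by that count alone, as 1 or more unique molecular identifiers (UMIs, each 1 captured transcript molecule) of Tcf21. The rule took 506 of the 5151 kept cells of both days, made up of 308 of 2980 cells on day 4 and 198 of 2171 cells on day 7, and all 3 libraries together held 6124 kept cells. Each Tcf21 cell was set beside 3 cells of the same day that had 0 Tcf21 UMIs and the nearest total UMIs, which gave 924 matched cells on day 4 and 594 on day 7. The median depth was 5407 UMIs in Tcf21 cells and 5411.5 UMIs in matched cells on day 4, and 7595.5 and 7599.5 UMIs on day 7. Over all kept cells the median was 2886.5 UMIs on day 4 and 3285 UMIs on day 7, so the rule picked deep cells. Matching made the medians alike but not the means, which were 6701 UMIs in Tcf21 cells and 6403 in matched cells on day 4, and 9219 and 8864 UMIs on day 7.

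Tcf21 encodes a class II basic helix-loop-helix transcription factor, which binds E-box DNA as a dimer with E proteins such as those encoded by Tcf3, Tcf4 and Tcf12. It is known from the mesenchyme of developing lung, kidney, gonad and epicardium, where it marks fibroblast-like precursors. In the adult testis it marks interstitial mesenchymal cells that lie among Leydig cells, peritubular muscle cells and vessels. Pdgfra encodes the alpha receptor for platelet-derived growth factors (PDGF), a common surface marker of such stromal cells.

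The study followed a culture in which sorted testis cells are led towards Leydig cells, the steroid-making cells of the testis. Cells of the Sca1+/cKit- gate came from testes of adult C57BL/6 males of 8 to 12 weeks, and wells coated with Matrigel each received 100000 of them. After 18 hours of recovery came 3 days of expansion in medium with PDGFAA and PDGFBB (10 ng/ml each), the hedgehog agonist SAG (0.5 µM) and FGF2 (10 ng/ml). The differentiation medium that replaced it held the same factors with 5 mM LiCl2, which activates Wnt signaling, and 10 µM DAPT, which blocks Notch cleavage. The study places day 4 after expansion medium and day 7 at 3 days of differentiation medium, so the later agents are not taken as given to day 4 cells. Days 4, 7 and 14 gave 1 Drop-seq library each, with 12677110, 11627440 and 5324400 UMIs in kept cells. Day 14 serves here for context only, as a level of Tcf21, for the level that free RNA gives and for ranges of contractile genes. No cell barcode was shared between any pair of the 3 libraries.

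Within each library, many barcodes differed from another kept barcode only at the last of their 12 bases. On day 4, 1304 of 2980 barcodes (43.8%) fell into 351 groups that shared their first 11 bases, and 274 of these groups held 4 barcodes. On day 7, 1026 of 2171 barcodes (47.3%) fell into 269 such groups, 229 of them with 4 barcodes. Grouped barcodes were shallow, with a median of 1665 UMIs against 5039 UMIs for barcodes that stood alone on day 4, and 1951 against 6464 UMIs on day 7. Barcodes of a group were also more alike than others. Over 679 genes of at least 250 CPM (counts per 1000000 UMIs), the correlation of expression between cells, taken across genes, had a median of 0.131 within groups and -0.000283 between other pairs on day 4, and 0.148 and -0.000954 over 686 genes on day 7. In Drop-seq, a bead that lacks 1 synthesis base is known to read as up to 4 barcodes with a shared beginning. Whether each group here was 1 cell was not tested. Of the Tcf21 cells, 62 of 308 on day 4 and 53 of 198 on day 7 belonged to such groups. Main results are therefore also given with each group summed into 1 cell, which left 2027 cells with 295 Tcf21 cells on day 4 and 1414 cells with 193 on day 7, or with all grouped barcodes left out.

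Tcf21 was a low-abundance transcript whose detection followed depth. On day 4, 392 UMIs gave 30.9 CPM (exact Poisson 95% interval 27.9–34.1), on day 7, 251 UMIs gave 21.6 CPM (19.0–24.4), and on day 14, 75 UMIs gave 14.1 CPM (11.1–17.7). Only counting error enters these and all other intervals. Each day is a single library without replicates, cells of a library are no replicates either, and days and libraries cannot be told apart. A Tcf21 UMI was seen in 10.3% of day 4 cells (exact Clopper-Pearson 95% interval 9.27–11.5%), 9.12% of day 7 cells (7.94–10.4%) and 5.76% of day 14 cells (4.38–7.41%). After every cell was thinned at random to 1500 UMIs, which left out 753, 429 and 179 shallower cells, the shares were 4.36%, 3.1% and 2.27%. Summing grouped barcodes raised the shares without thinning to 14.6%, 13.6% and 8.82%. With day 4 cells parted into 3 equal groups by depth, from shallow to deep, 3.42%, 10.2% and 17.4% had a UMI, at 28.2, 43.4 and 26.9 CPM. The same groups of day 7 had shares of 3.31%, 6.08% and 18.0% at 26.3, 21.9 and 20.9 CPM. Most cells with a low total therefore had no Tcf21 UMI whatever their level, and a cell with 0 UMIs need not lack the transcript.

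Just inside the threshold, 244 of the 308 day 4 cells and 161 of the 198 day 7 cells had exactly 1 Tcf21 UMI. Just outside it stood the 2672 and 1973 cells with 0 UMIs. On day 4, 51 cells had 2 UMIs, 10 had 3, and single cells had 4, 5 and 7. On day 7, 28 cells had 2 UMIs, 3 had 3, 5 had 4 and 1 had 5. For the level that free RNA gives, the day 14 cells with at least 3 UMIs of Cyp17a1, a steroid enzyme of Leydig cells, were taken as cells that should lack Tcf21. A Tcf21 UMI was seen in 4 of these 120 cells (3.33%, 0.916–8.31%), at 3.77 CPM (1.03–9.66) and a median of 6027.5 UMIs, and in 0 of 109 after thinning. Cells with at least 3 endothelial genes were too few to give such a level. On day 4, 0 of 12 had a Tcf21 UMI at a median of 6048.5 UMIs. This allows a share of cells with a UMI of up to 25% as 3 counts of 12, or 26.5% by the exact interval. On day 7 it was 0 of 3, and on day 14, 2 of 4 (50%, 6.76–93.2%) at a median of 18360.0 UMIs. Barcodes that the cell filter removed held 3 Tcf21 UMIs in 320 barcodes on day 4 (a median of 569 UMIs) and 1 in 229 on day 7, which are 18.7 CPM (3.85–54.5) and 8.35 CPM (0.212–46.5). The level that free RNA gives on days 4 and 7 was thus not measured well.

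Across the transcriptome, Tcf21 cells and their matched cells were close to each other, and few genes stood apart. Of 3363 genes with at least 50 CPM over all day 4 cells, Tcf21 itself left out, 25 were at least 1.5-fold higher in Tcf21 cells (0.743%) and 20 at least 1.5-fold lower (0.595%). Of 3427 such genes on day 7, 27 were higher (0.788%) and 16 lower (0.467%). The median log2 ratio of all genes was 0.00 on both days. Past 1.5-fold on both days were 5 genes higher, Adamts1, Prelp, C1qtnf7, C1qtnf3 and Arhgap20, and 2 genes lower, Lipg and Itga5. After thinning of these cells to 1500 UMIs, 1 of the 5 and 0 of the 2 were still past 1.5-fold on both days, and without matching 2 of the 5 and 1 of the 2. No gene at 50 CPM on both days was past 1.5-fold in opposite directions. The 5 shared genes are 20% of the day 4 list and 18.5% of the day 7 list, and the 2 lower ones are 10% and 12.5%.

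The days share no cells or barcodes, so a gene's place on 1 day can be read beside its place on the other. All 17 genes that were higher on day 4 and reached 50 CPM on day 7 were above 1 on day 7, and 15 of 16 lower genes were below 1. In the other direction, 21 of 23 genes higher on day 7 were above 1 on day 4 and 8 of 9 lower genes below 1. Of all genes at 50 CPM, 50.4% were above 1 on day 4 and 49.2% on day 7. Over the 3127 genes at 50 CPM on both days, the log2 ratios had a Pearson correlation of 0.43 and a Spearman correlation of 0.36. These are correlations across genes, which are not independent of each other. With groups of barcodes summed, 34 genes were higher and 21 lower on day 4, and 17 higher and 7 lower on day 7. Of the main lists, 21 of 25, 18 of 20, 14 of 27 and 7 of 16 genes were then still past 1.5-fold, and all of them stayed on the same side of 1.

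**Figure D1:**
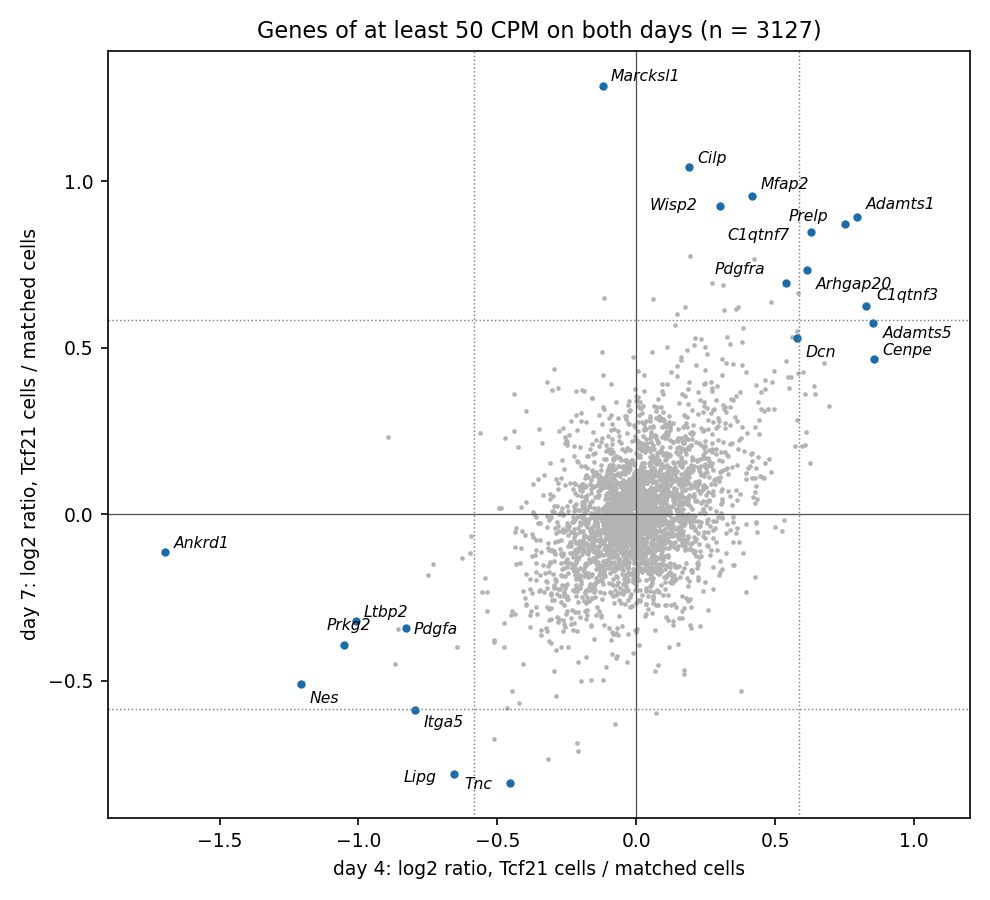
Each point is 1 of the 3127 genes with at least 50 CPM on both days. The x axis gives the log2 ratio of Tcf21 cells to matched cells on day 4 and the y axis that on day 7. Dotted lines mark 1.5-fold, and named genes are in blue. Adamts1, Prelp, C1qtnf7, C1qtnf3 and Arhgap20 lie past the line on both days, as do Lipg and Itga5 on the lower side.

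PDGF receptor alpha went with Tcf21 on both days. Pdgfra (chromosome 5 of GRCm38, from 75152292 to 75198215) stood at 141 CPM in Tcf21 cells and 97.5 CPM in matched cells on day 4, from 292 and 577 UMIs, a ratio of 1.45 (exact conditional binomial 95% interval 1.26–1.67). On day 7 it stood at 89.8 and 55.5 CPM, a ratio of 1.62 (1.33–1.97). A Pdgfra UMI was seen in 48.4% of Tcf21 cells and 34.8% of matched cells on day 4, and in 41.9% and 29.6% on day 7. After thinning, the shares were 18.7% and 12.7% on day 4 (24 and 72 cells left out) and 14.7% and 8.61% on day 7 (8 and 25 left out). The gene was not used by the rule, and its higher level held with barcode groups summed (1.47 and 1.57). The beta receptor Pdgfrb, typical of pericytes and muscle-like stroma, was near even, at 41.7 against 43.8 CPM on day 4 and 33.4 against 36.8 CPM on day 7, with intervals that include 1.

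Of the ligands of these receptors, only Pdgfa reached 50 CPM, and it was lower. Pdgfa, whose product binds the alpha receptor, stood at 55.2 against 98.2 CPM on day 4, a ratio of 0.563 (0.456–0.689), and at 175 against 222 CPM on day 7, a ratio of 0.789 (0.695–0.893). Pdgfc, another alpha receptor ligand, was scarce, with 19 and 107 UMIs on day 4 and 23 and 127 on day 7, which are ratios of 0.509 (0.295–0.834) and 0.522 (0.320–0.819). Pdgfd ratios of 1.34 and 1.12 had intervals that include 1, and Pdgfb had 1 UMI in Tcf21 cells on day 4 and 5 on day 7. PDGFAA and PDGFBB were in the medium of all days, and the counts do not measure protein.

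The 5 genes higher on both days were Adamts1, Prelp, C1qtnf3, C1qtnf7 and Arhgap20. Adamts1, a secreted protease that cleaves the proteoglycans versican and aggrecan, stood at 231 against 133 CPM on day 4 and 161 against 86.4 CPM on day 7, ratios of 1.74 (1.55–1.95) and 1.86 (1.60–2.16). Prelp, a small leucine-rich proteoglycan that ties basement membrane to connective tissue, stood at 144 against 85.9 CPM and 81.1 against 44.3 CPM, ratios of 1.68 (1.45–1.94) and 1.83 (1.48–2.26). Over 13 alternative settings, the lowest ratios were 1.43 and 1.52 for Adamts1 and 1.46 and 1.53 for Prelp. C1qtnf3 and C1qtnf7 encode secreted proteins related to complement C1q. C1qtnf3 stood at 94.5 against 53.2 CPM on day 4, a ratio of 1.77 (1.48–2.13), and 66.8 against 43.3 CPM on day 7, a ratio of 1.54 (1.23–1.93). Among day 7 cells with at least 2 Tcf21 UMIs its ratio was 0.918 (0.478–1.66). C1qtnf7 had ratios of 1.55 (1.31–1.82) and 1.80 (1.45–2.24), from 113 and 75.6 CPM in Tcf21 cells. Arhgap20 had ratios of 1.53 and 1.66, from 169.6 against 111 CPM and 116 against 69.9 CPM.

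Lipg and Itga5 were the genes lower on both days. Lipg, which encodes the secreted phospholipase called endothelial lipase, stood at 142 against 224 CPM on day 4 and 169 against 291 CPM on day 7, ratios of 0.634 (0.557–0.720) and 0.582 (0.513–0.658). Itga5, the alpha 5 subunit of the fibronectin receptor, stood at 39.7 against 69.0 CPM and 43.8 against 65.9 CPM, ratios of 0.576 (0.449–0.732) and 0.665 (0.515–0.850). By contrast Itga1, the alpha 1 subunit of a collagen receptor, was among the 5 highest day 4 ratios of genes at 50 CPM, at 77.5 against 44.6 CPM (1.74, 1.42–2.12). On day 7 Itga1 was under 50 CPM over all cells and had a ratio of 1.92 (1.43–2.55). The most abundant integrin subunit, Itgb1, was near even, at 0.953 and 0.985.

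Other genes with the highest day 4 ratios at 50 CPM were Adamts5, Ifitm1 and Cenpe. Adamts5, a secreted aggrecan-cleaving protease that the study lists for Tcf21 cells of the adult testis, stood at 267 against 148 CPM on day 4, which is 1.80 times that level (1.62–2.01), and on day 7 at 211 against 142 CPM, just under 1.5-fold (1.49, 1.31–1.69). Ifitm1, an interferon-induced membrane protein gene, stood at 95.9 against 51.7 CPM (1.86, 1.54–2.23). On day 7 it was scarce, with 24 and 18 UMIs (a ratio of 3.85, and 2.52 without the richest cell of each group), and 45.8% of the former lay in a single cell. Other interferon-stimulated genes were mixed. On day 4, 4 of 7 at 50 CPM were higher and 3 lower, at a median of 0.01, and the list summed to 2893 against 2563 CPM (interval of the ratio 1.10–1.16), most of it Ifi27l2a, and on day 7, 1 of 2 was higher, with a summed ratio of 0.961 (0.894–1.03).

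Among genes at 50 CPM, the 5 highest day 7 ratios were those of Eln, Marcksl1, Cilp, Mfap2 and Wisp2. Eln, which encodes tropoelastin, had the highest, at 113 CPM in Tcf21 cells and 35.7 CPM in matched cells, from 207 and 188 UMIs (3.18, 2.59–3.89). An Eln UMI was seen in 34.3% and 15.2% of these cells, and in 15.3% and 4.57% after thinning. On day 4 it was under 50 CPM over all cells, with a ratio of 1.57 (1.26–1.96). Mfap2, a microfibril protein that elastin is laid on, stood at 94.8 against 48.8 CPM on day 7 (1.94, 1.59–2.36) and had a ratio of 1.34 on day 4. Other genes of elastic fibres lay on either side of 1. Fbln5, which binds elastin and helps fibres form, had ratios of 1.24 (1.1–1.35) and 1.34 (1.21–1.48). Lox, the enzyme that crosslinks elastin and collagen, was slightly lower, at 0.887 and 0.933, and Fbln2 was lower too, at 0.759 and 0.882.

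Cilp, an extracellular protein of cartilage and fibroblasts, stood at 205 against 99.7 CPM on day 7 (2.06, 1.80–2.36) with similar shares of cells, 28.8% and 25.8%, so its difference lay in the UMIs per cell. Given equal weight per cell or otherwise set, its day 7 ratio ranged from 1.24 to 2.24. Wisp2, a matricellular protein gene of the CCN family, stood at 139.7 against 73.5 CPM (1.90, 1.62–2.23). Marcksl1, whose product binds membrane lipid and actin, had a ratio of 2.44, but 37.4% of its UMIs in Tcf21 cells lay in a single cell. Without the Tcf21 cell and the matched cell richest in it, an alternative chosen after the data had been seen, its ratio was 1.63. On day 4 Marcksl1 was near even, at 0.919 (0.734–1.14).

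Markers of the adult testis population were slightly higher in the cultured Tcf21 cells. The study lists markers of Tcf21 cells in the adult testis, chosen on other libraries, and the first 25 besides Tcf21 and Pdgfra were taken. On day 4, 18 of the 19 at 50 CPM were higher and 1 lower, with 3 past 1.5-fold and a median log2 ratio of 0.27. On day 7, 16 of 18 were higher and 2 lower, with 1 past 1.5-fold and a median of 0.34. Over all genes, 50.4% were above 1 on day 4 and 49.2% on day 7, with a median of 0.00 on both days. The 6 and 7 list members under 50 CPM had summed ratios of 1.55 (1.38–1.73) and 1.89 (1.64–2.19). Dcn, a collagen-binding proteoglycan, stood at 808 against 541 CPM on day 4 and 455 against 315 CPM on day 7, ratios of 1.49 (1.41–1.59) and 1.44 (1.33–1.57). Gsn, which severs actin filaments, had ratios of 1.38 and 1.30, Serping1, the inhibitor of complement C1, 1.40 and 1.55, and Fgl2, a secreted fibrinogen-like protein, 1.60 and 1.37. S100a6, the most abundant member, was slightly lower, at 0.967 and 0.947. Summing barcode groups gave medians of 0.24 and 0.28.

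Markers that the study names for interstitial progenitors were mixed. Ly6a, which encodes the Sca1 antigen of the sort, stood at 698 against 469.9 CPM on day 4 (1.49, 1.39–1.58) and, much scarcer, at 68.5 against 59.4 CPM on day 7 (1.15, 0.929–1.42). Shares of cells with a Ly6a UMI were near even on day 4, at 66.9% and 68.2%. Cd34, a stromal and vascular sialomucin, was higher on day 4 (158 against 122 CPM, 1.30) and lower on day 7 (69.6 against 100.5 CPM, 0.692, 0.566–0.842). Nr2f2, the orphan receptor COUP-TFII of interstitial cells, had ratios of 1.14 and 1.07 with intervals that include 1. Vim, a fibroblast filament gene, was the most abundant of these markers, at 2781 against 2892 CPM on day 4 and 3484 against 3886 CPM on day 7. Over this list, 4 of 6 members at 50 CPM were higher on day 4 and 2 of 5 on day 7. Tcf21 itself is a marker of the label too, but its difference was fixed by the rule.

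Contractile genes leaned lower. Of the 13 list members at 50 CPM on day 4, 0 were higher and 13 lower, with a median log2 ratio of -0.18. On day 7, 1 was higher and 11 lower, with a median of -0.11. Among all genes at 50 CPM, 50.4% were above 1 on day 4 and 49.2% on day 7. None of these list members passed 1.5-fold. Acta2, smooth muscle actin, stood at 2783 against 3420.5 CPM on day 4 and 2604 against 2872 CPM on day 7, ratios of 0.814 (0.790–0.838) and 0.907 (0.878–0.937). Tagln, an actin-binding protein of smooth muscle, had ratios of 0.786 and 0.948, and S100a4, a calcium-binding protein of fibroblasts, 0.828 and 0.758. The exception on day 7 was Actg2, gamma smooth muscle actin, at 1.05 (0.843–1.31). When cycling cells were left out, the day 7 median was 0.034.

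Among genes at 50 CPM, the 5 lowest day 4 ratios were those of Ankrd1, Nes, Prkg2, Ltbp2 and Pgf. Ankrd1, a muscle ankyrin-repeat protein gene and known target of the co-activator YAP, stood at 68.8 CPM in Tcf21 cells and 223 CPM in matched cells (0.309, 0.258–0.367). Its ratio ranged from 0.285 to 0.507 over 13 alternatives on day 4, and on day 7 it was 0.924 (0.777–1.09). Nes, the intermediate filament nestin, stood at 30.0 against 69.3 CPM (0.434, 0.326–0.567) and on day 7 at 65.7 against 93.6 CPM (0.702). Prkg2, a cGMP-dependent kinase, stood at 66.9 against 139 CPM (0.482, 0.399–0.578), and Ltbp2, a microfibril protein of the latent TGF-beta binding family, at 60.1 against 121 CPM (0.496, 0.407–0.602). Pgf, a ligand of VEGF receptor 1, stood at 31.5 against 62.0 CPM (0.508, 0.384–0.663). All of these day 7 ratios were nearer to 1, at 0.762 for Prkg2, 0.800 for Ltbp2 and 0.857 for Pgf. Without the richest cell of each group, however, the Nes ratio was 0.473 on day 7, beside 0.404 on day 4. Ctgf, another gene that YAP is known to activate, was near even, at 0.962 and 0.939.

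Members of the TGF-beta and BMP pathway at 50 CPM were lower. None of the 4 at 50 CPM on day 4 was higher (median log2 ratio -0.49), and none of 3 on day 7 (median -0.35). Among all genes at 50 CPM, 50.4% were above 1 on day 4 and 49.2% on day 7. Inhba, the activin A subunit, stood at 788 against 984 CPM on day 4 (0.801, 0.758–0.846) and 667 against 852 CPM on day 7 (0.783, 0.735–0.835). Fst, which encodes the activin antagonist follistatin, had a day 4 ratio of 0.618 (0.480–0.787) and Tgfb3, a TGF-beta ligand, 0.637 (0.511–0.788). Grem1, a secreted BMP antagonist, was among the 5 lowest day 7 ratios at 50 CPM, at 32.9 against 71.6 CPM (0.459, 0.344–0.604), and on day 4 it had 3 and 61 UMIs. The 8 and 9 members under 50 CPM had summed ratios of 0.989 (0.868–1.12) and 1.1 (1.01–1.28). Ctgf, the most abundant member, was the nearest to 1 of those at 50 CPM, on either day.

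Matrix genes at 50 CPM were mixed, with list medians near even. Of 12 collagen genes at 50 CPM, 8 were higher on day 4 (median log2 ratio 0.07) and 7 on day 7 (0.05). Col3a1, a fibrillar collagen of loose connective tissue, stood at 5243 against 4299 CPM on day 4 (1.22) and 4117 against 3246 CPM on day 7 (1.27), while Col6a3 was lower, at 0.878 and 0.835. Among other matrix genes, 7 of 16 were higher on each day (medians -0.07 on both). Collagens under 50 CPM had summed ratios of 0.940 (0.771–1.14) on day 4 and 0.710 (0.560–0.892) on day 7. Other matrix genes under 50 CPM had 1.37 (1.19–1.59) and 1.52 (1.27–1.82). Thbs1, Postn and Tnc, matricellular proteins of wound and tension responses, were lower on day 4, at 0.663 (0.607–0.723), 0.779 (0.669–0.904) and 0.730 (0.576–0.918). Tnc was the lowest of them on day 7, at 111 against 195 CPM (0.571, 0.489–0.665), with Postn at 0.824 and Thbs1 at 0.956. In Tcf21 cells of day 4, 42.6% of Tnc UMIs lay in a single cell, and without the Tcf21 cell and the matched cell richest in it the ratio was 0.437. Ank, which exports pyrophosphate, a mineralization inhibitor, was also among the 5 lowest day 7 ratios at 50 CPM, at 78.9 against 139 CPM (0.567, 0.471–0.679).

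Matrix proteases and inhibitors were mixed, with 5 of 9 members at 50 CPM higher on each day and medians of 0.00. Mmp2, gelatinase A, stood at 70.7 against 45.5 CPM on day 4 (1.56, 1.26–1.91) and 201 against 154 CPM on day 7 (1.31, 1.15–1.48). Timp1, an inhibitor of metalloproteases and the most abundant gene of the list, stood at 5335 against 7426 CPM on day 4 (0.718, 0.704–0.734) and 9225 against 11582 CPM on day 7 (0.796, 0.783–0.810). Mmp14, a membrane-bound protease, was near even, at 0.929 and 0.972. Mmp3, stromelysin 1, was scarce, with 0 and 44 UMIs on day 4, and 81.8% of the latter lay in a single cell.

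Basic helix-loop-helix partners and Id inhibitors, taken as 1 list, leaned higher, while not every gene did. All 4 members of the list at 50 CPM on day 4 were higher, as were all 3 on day 7, beside 50.4% and 49.2% of all genes. Their medians were 0.23 and 0.21, and members under 50 CPM had summed ratios of 1.27 (1.10–1.46) and 1.24 (1.08–1.42). Tcf4, an E protein gene and the most abundant of them, stood at 234 against 185 CPM on day 4 (1.26, 1.1–1.41) and 188 against 162 CPM on day 7 (1.16, 1.02–1.31). Tcf12 had ratios of 1.08 and 1.11 with intervals that include 1, and Tcf3 of 1.14 (0.866–1.48) and 1.54 (1.14–2.06) under 50 CPM. Twist1, a class II factor like Tcf21, had ratios of 1.38 (1.09–1.73) and 1.35 (1.09–1.67), while Twist2 was below 1, at 0.877 and 0.898. Msc and Hand2, relatives of Tcf21, were nearly absent, with 9 and 10 UMIs of Msc on day 4 and 7 and 9 of Hand2 on day 7. Id3, which blocks E proteins, was higher on day 4 (1.37, 1.18–1.58) and even on day 7 (0.989). Id2 had ratios of 1.44 and 1.55, and Id1 of 1.08 and 1.30. Of the mesenchymal and gonadal transcription factors, 2 of 6 were higher on day 4 (median log2 ratio -0.23) and 4 of 5 on day 7 (0.14). Prrx1, the most abundant, had ratios of 1.12 and 1.16.

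A hedgehog agonist and FGF2 were in both media, and agents acting on Wnt and Notch only in the later medium. No hedgehog gene reached 50 CPM, and the 8 genes together had ratios of 1.17 (1.01–1.35) and 1.17 (0.966–1.41). Ptch1, the hedgehog receptor and a target of the pathway, had 95 and 191 UMIs on day 4 and 56 and 91 on day 7, ratios of 1.43 (1.10–1.83) and 1.77 (1.25–2.5). Gli1, another target, lay on the other side of 1 on day 4 (0.566, 0.309–0.976) and on the same side on day 7 (1.62, 0.857–2.98, and 2.08 with barcode groups summed). Among Wnt genes, 1 of 2 at 50 CPM was higher on each day, and Sfrp1, a secreted Wnt antagonist, stood at 149 against 102 CPM (1.45) and 91.5 against 66.5 CPM (1.38). Of the Notch genes, Hes1 was the most abundant, with ratios of 1.02 and 1.18, and 1 of 2 members was higher on day 4 and 1 of 1 on day 7. Genes of FGF receptors and ERK feedback had 2 of 5 higher on day 4 and 1 of 4 on day 7, with medians of -0.04 on both days. All 4 genes of the insulin-like growth factor axis at 50 CPM were higher on each day, beside 50.4% and 49.2% of all genes. Their medians were 0.22 and 0.26, and Igfbp4, which binds these factors, had ratios of 1.29 (1.11–1.49) and 1.54 (1.25–1.89).

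Retinoid enzymes differed by isoform. Aldh1a1, a retinaldehyde dehydrogenase, stood at 773 against 516 CPM on day 4 (1.5, 1.41–1.59) and 486 against 362 CPM on day 7 (1.34, 1.24–1.45). Aldh1a3, which carries out the same step, was lower, at 0.803 (0.656–0.978) and 0.601 (0.518–0.695). Of the list, 2 of 4 members were higher on day 4 and 3 of 5 on day 7. Crabp1, a retinoic acid binding protein gene, had a day 7 ratio of 0.596 (0.451–0.778), and with 1 matched cell per Tcf21 cell it was 1.01.

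The 12 steroidogenesis genes together stood at 483 against 480.2 CPM on day 4 and 529 against 604 CPM on day 7, ratios of 1.01 (0.934–1.08) and 0.876 (0.814–0.941). Star, which brings cholesterol into mitochondria, was the most abundant of them, at 168 against 221 CPM on day 4 (0.760, 0.673–0.856) and 327 against 394 CPM on day 7 (0.829, 0.756–0.908). Cyp11a1, the side-chain cleavage enzyme, had the lowest day 7 ratio among genes at 50 CPM, from 10 UMIs in Tcf21 cells and 115 in matched cells (0.251, 0.117–0.478), but 40.9% of the latter lay in a single cell and 2.02% of cells in both groups had a UMI. The ratio was 0.256 without the richest cell of each group and 0.0557 with barcode groups summed. On day 4 it was 1.14, and 0.296 without the richest cells. Among list members at 50 CPM, 2 of 3 were higher on day 4 and 2 of 4 on day 7, and 4 of 12 had no UMI in Tcf21 cells on each day.

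Immune-modulating genes were mixed on day 4 and mostly higher on day 7. On day 4, 4 of 6 members were higher, beside 50.4% of all genes, and the list's summed ratio was 0.949 (0.906–0.994), and on day 7, 6 of 7 were higher, beside 49.2% of all genes, and the list summed to 1449.5 against 1281.6 CPM (interval of the ratio 1.08–1.18). Ccl2, which draws monocytes, stood at 157 against 293 CPM on day 4 (0.538, 0.477–0.606) and 387 against 330.1 CPM on day 7 (1.17, 1.07–1.28), where it was 1.02 without the richest cell of each group. Vcam1, an adhesion molecule of stroma, had ratios of 1.32 (1.1–1.54) and 1.18 (1.05–1.34), and Cxcl12, a chemokine of progenitor niches, 0.768 and 0.874. Immediate-early genes were mixed, with 2 of 5 higher on day 4 and 2 of 3 on day 7. Srgn, the granule proteoglycan serglycin, was among the 5 lowest day 7 ratios at 50 CPM, at 44.4 against 108 CPM (0.410, 0.321–0.518).

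Mitotic genes were higher in Tcf21 cells, at similar shares of cycling cells, but on day 4 their median was near even without the deepest 5% of cells. On day 4, 13 of 13 genes of G2 and M phase at 50 CPM were higher, with 3 past 1.5-fold and a median log2 ratio of 0.55, and on day 7, 12 of 12 were higher, with 1 past 1.5-fold and a median of 0.39. Cenpe, a kinetochore motor, stood at 172 against 95.2 CPM on day 4 (1.81, 1.58–2.07), and Prc1, which bundles spindle microtubules, at 211 against 139 CPM (1.52). At least 3 genes of S, G2 or M phase were detected in 51.9% of Tcf21 cells (46.2–57.6%) and 50.8% of matched cells (47.5–54.0%) on day 4, and in 67.7% (60.7–74.1%) and 63.0% (58.9–66.9%) on day 7. After thinning, these shares were 26.1% and 24.6% on day 4 and 30.5% and 25.3% on day 7. Without the deepest 5% of cells, the day 4 median was 0.062 and the Prc1 ratio 0.925, while the day 7 median was 0.31. With equal weight per cell the day 4 median was 0.37, and after thinning 0.38. Day 4 cells with at least 3 such genes were also deeper, at a median of 5426 UMIs against 2177.5 in the rest. Depth and cycle state were thus not separated, and what the difference depends on was not tested. Without cycling cells the medians were 0.11 on day 4, with a Cenpe ratio of 0.742, and -0.59 on day 7. Cycling cells were picked by genes of the same phases, so their removal cannot show what the difference depends on. With matching within cycling and other cells, the medians were 0.50 and 0.42. Of S-phase genes at 50 CPM, 1 of 3 was higher on day 4 and 3 of 5 on day 7 (medians -0.01 and 0.20). Of all genes, 50.4% and 49.2% were higher. The S-phase list had summed ratios of 0.866 (0.815–0.920) and 1.11 (1.05–1.17). Read the other way, Tcf21 stood at 29.5 CPM (25.6–33.7) in cells with at least 3 such genes and 32.8 CPM (28.2–37.9) in the rest on day 4, and at 21.6 CPM in both on day 7. With matching done within these states, the Pdgfra ratios were 1.46 and 1.67.

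Among markers of other cell types, macrophage and epithelial genes were near 0 in Tcf21 cells, while the other lists had summed levels of 34.0 to 151 CPM. Of 10 macrophage genes, 7 had no UMI in Tcf21 cells on each day, and the list summed to 10 UMIs against 33 in matched cells on day 4 (4.85 and 5.58 CPM) and 14 against 91 on day 7 (7.67 and 17.3 CPM), with Csf1r most abundant on day 4 and Lyz2 on day 7, where 75% of the Lyz2 UMIs of matched cells lay in a single cell. Endothelial genes summed to 115 CPM in both groups on day 4 and to 118 against 129 CPM on day 7, most of it Cdh5, and 7 and 5 of the 10 genes had no UMI in Tcf21 cells. Sertoli genes summed to 57.2 against 56.3 CPM and 50.4 against 55.8 CPM, with Sox9 most abundant. Epithelial and mesothelial genes had 2 UMIs against 43 on day 4 and 3 against 15 on day 7, with Krt18 and Msln most abundant. Germ cell genes summed to 117 against 183 CPM on day 4 and 34.0 against 30.6 CPM on day 7. On day 4, 81.6% of the Prm1 UMIs of Tcf21 cells and 88.5% of the Tnp1 UMIs of matched cells lay in a single cell. Of adult smooth muscle and pericyte genes, 1 of 10 reached 50 CPM, Cspg4, a pericyte proteoglycan, with ratios of 0.808 (0.684–0.95) and 0.765 (0.649–0.899), while the other 9 had summed ratios of 1.23 (0.989–1.53) and 1.42 (1.06–1.89). The whole list summed to 151 against 162 CPM and 145 against 165 CPM. No doublet caller was run.

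Genes past 1.5-fold were also read apart in cells with 1 Tcf21 UMI and in cells with more. Cells of 1 UMI and of at least 2 UMIs were each matched anew, with median depths of 4961 and 6237.5 UMIs on day 4 and 7273 and 8811 UMIs on day 7. Of the 25 genes higher on day 4, 20 were farther from 1 with at least 2 UMIs, as were 17 of 20 lower genes, 19 of 27 higher genes of day 7 and 12 of 16 lower ones. The group of at least 2 UMIs is small, with 64 and 37 cells, and its greater counting error widens ratios in both directions. It also helped to choose these genes, and no count over all genes stands beside theirs. The counts are therefore a description and cannot show that ratios grow with Tcf21. Pdgfra had ratios of 1.46 (1.24–1.73) and 1.60 (1.19–2.13) on day 4 and 1.44 (1.14–1.82) and 2.65 (1.81–3.89) on day 7. For Adamts1 they were 1.60 and 2.23 on day 4 and 1.59 and 3.36 on day 7, and for Prelp 1.57 and 2.04, then 1.46 and 3.44. Eln on day 7 reached 5.34 (3.41–8.51) with at least 2 UMIs. On the lower side, Itga5 had ratios of 0.761 and 0.225 on day 7, and Timp1 of 0.760 and 0.556 on day 4. Ankrd1 on day 4 was nearer to 1 with at least 2 UMIs, at 0.288 and 0.383. Contractile genes of day 4 were near even at 2 UMIs or more, with a list median of -0.051. Acta2 stood at 0.783 with 1 UMI and 0.966 (0.913–1.02) with more.

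**Figure D2:**
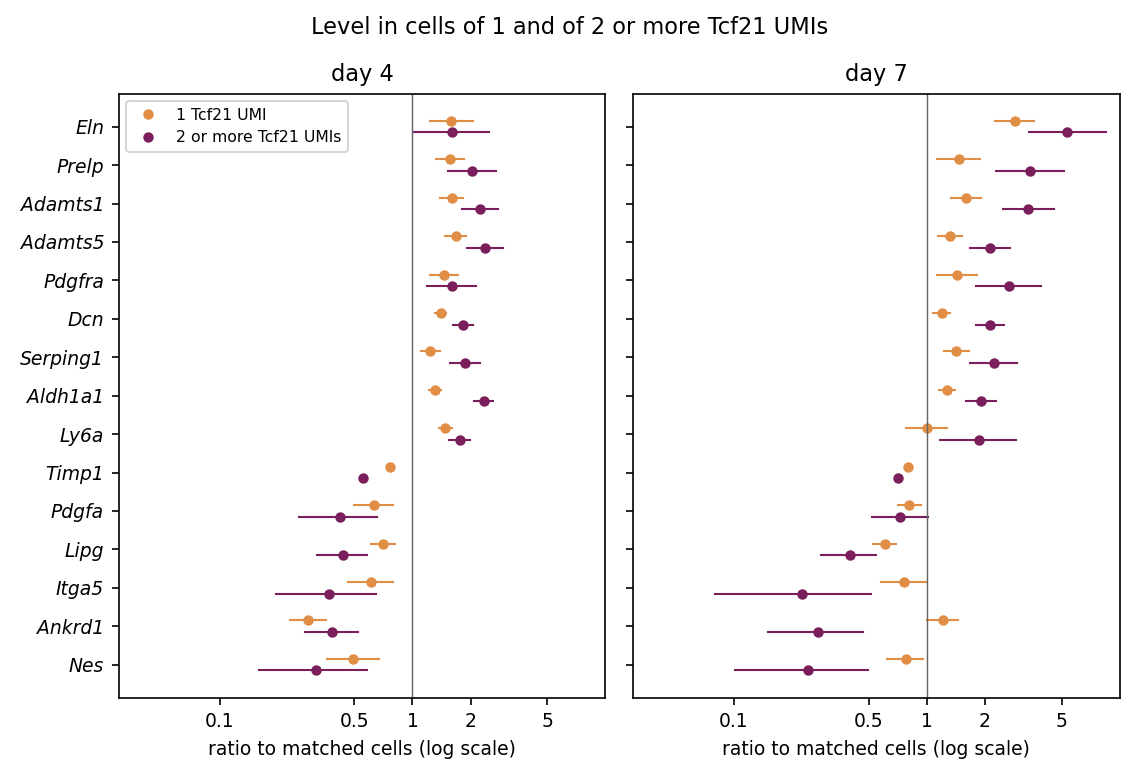
Points give the ratio of a gene's level to that in matched cells (log scale) for cells with 1 Tcf21 UMI (orange, 244 cells on day 4 and 161 on day 7) and with at least 2 (purple, 64 and 37 cells). Lines are exact 95% intervals of counting error. On day 7 Prelp stands at 1.46 and 3.44, and Lipg at 0.604 and 0.398.

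Tcf21 itself was highest where contractile genes took the smallest share of a cell's UMIs on days 4 and 7. Cells of each day were ranked by the share of their UMIs in the contractile list and parted into 4 equal ranges, which are ranges of a score and not cell types. From the lowest to the highest range, Tcf21 stood at 48.4 (40.5–57.3), 25.6, 25 and 27.6 CPM (22.2–34.0) on day 4. On day 7 it stood at 35.2 (27.8–43.8), 21.5, 17.9 and 15.4 CPM (11.3–20.5). The difference on day 4 therefore lay between the lowest range and the other 3, whose intervals overlap. The ratio of the lowest to the highest range was 1.75 (1.33–2.32) on day 4 and 2.28 (1.57–3.35) on day 7, and 1.78 and 2.27 with barcode groups summed. On day 14 the order of the ranges was reversed, with 4.01 CPM (1.30–9.36) in the lowest range, 5.91, 20.8 and 28.2 CPM (19.1–40.3), a ratio of 0.142 (0.0430–0.370). The ranges of that day are not those of the others, since the median contractile level in its highest range, 3786 CPM, was under that in the lowest range of day 4 (9198 CPM) and day 7 (5405 CPM). Median depths in the 4 ranges were 2764, 2941, 3114 and 2739 UMIs on day 4 and 2569, 3788, 3640 and 3194 UMIs on day 7. Within 10% of a boundary between ranges lay 1142 cells on day 4, 742 on day 7 and 272 on day 14.

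**Figure D3:**
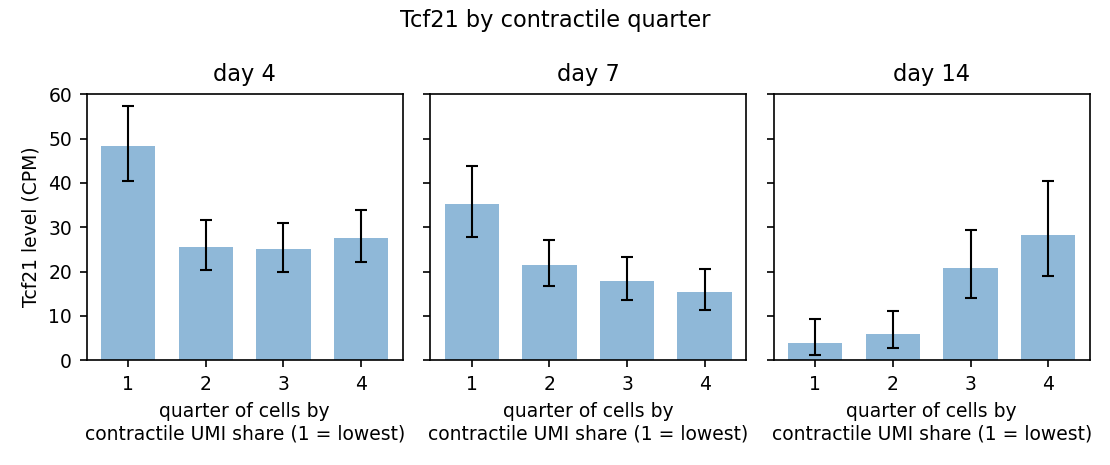
Bars give the Tcf21 level in CPM over all cells of 4 equal ranges of contractile UMI share (x axis, 1 is the lowest), for days 4, 7 and 14. Error bars are exact Poisson 95% intervals. The lowest range is highest on day 4 (48.4 CPM) and day 7 (35.2 CPM), and the highest range on day 14 (28.2 CPM), where all ranges have lower contractile levels.

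Since Tcf21 dimers bind E-boxes, the promoters of the genes that stood apart on both days were searched for the E-box letters CANNTG and for CAGCTG, which is 1 form of CANNTG. Each motif reads the same on both strands. Promoters of 300 bases around the gene start were taken from RefSeq on GRCm38.p6. All 5 genes higher on both days had a promoter in the table, as did Itga5. CANNTG was in 3 of the 5 (60%), against 72.4% of all 22862 promoters and 59.7% of those matched to genes at 50 CPM on day 4, and CAGCTG in 0 of the 5, against 16.1% and 12.4%. Itga5 had 1 CAGCTG and 2 CANNTG in all. These matches are a description of letters and not of binding sites. For the full lists past 1.5-fold the search is void, since only 2094 of 3363 genes at 50 CPM on day 4 matched a promoter. The promoters with a match follow, with CANNTG in capitals, on the plus strand for C1qtnf3 (chr15:10952082-10952381) and C1qtnf7 (chr5:43515319-43515618) and on the minus strand for Prelp (chr1:133921352-133921651) and Itga5 (chr15:103366742-103367041).
C1qtnf3: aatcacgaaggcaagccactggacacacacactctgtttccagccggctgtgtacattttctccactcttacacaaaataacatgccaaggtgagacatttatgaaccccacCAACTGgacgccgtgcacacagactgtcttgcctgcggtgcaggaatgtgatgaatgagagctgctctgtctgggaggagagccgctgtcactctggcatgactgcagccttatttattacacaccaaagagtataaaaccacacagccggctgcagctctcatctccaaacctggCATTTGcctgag
C1qtnf7: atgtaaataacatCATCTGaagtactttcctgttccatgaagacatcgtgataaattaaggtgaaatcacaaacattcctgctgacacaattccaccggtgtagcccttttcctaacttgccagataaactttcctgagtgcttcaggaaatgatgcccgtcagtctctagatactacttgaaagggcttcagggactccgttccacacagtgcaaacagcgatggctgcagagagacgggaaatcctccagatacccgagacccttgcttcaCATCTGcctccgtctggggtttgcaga
Prelp: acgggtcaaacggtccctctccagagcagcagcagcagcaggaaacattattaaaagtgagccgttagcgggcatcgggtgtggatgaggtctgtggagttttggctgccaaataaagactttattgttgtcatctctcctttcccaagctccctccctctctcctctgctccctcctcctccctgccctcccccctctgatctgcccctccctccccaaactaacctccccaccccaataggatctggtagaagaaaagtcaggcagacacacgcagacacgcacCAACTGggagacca
Itga5: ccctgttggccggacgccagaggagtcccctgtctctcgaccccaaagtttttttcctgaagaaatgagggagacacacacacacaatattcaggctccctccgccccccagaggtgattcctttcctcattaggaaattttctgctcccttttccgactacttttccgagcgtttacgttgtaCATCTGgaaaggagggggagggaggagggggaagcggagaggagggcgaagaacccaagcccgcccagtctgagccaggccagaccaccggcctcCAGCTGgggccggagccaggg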

How the data were processed

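The deposited values are raw UMI counts per gene and cell barcode, which the authors made with Drop-seq tools after alignment to GRCm38 with STAR (version 2.5.2a in the submitters' notes, another version in the paper's methods), with Picard 2.6.0 and SAMtools 1.2. Cells were the columns of the authors' merged table, which they limited to cells with 500 genes or more and 10% mitochondrial UMIs or less. Its 495 columns that match no sample used here were left out, and the other 6124 columns had 0 entries that differed from the tables per day. Matching took 3 unused cells per Tcf21 cell, nearest in log total UMIs, in order of falling depth. CPM divide a gene's UMIs, added over a group's cells, by the group's total in units of 1000000. No difference was tested, since each day has 1 library. The code for ratios was tested on simulated data. Positions are those of GENCODE M21, and random draws used seed 1. Python 3.11.15, numpy 2.4.6, scipy 1.17.1, pandas 2.3.3 and matplotlib 3.10.9 were used.

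Members and all 28 gene lists were chosen with earlier results of these data known. Named genes are those of the lists, up to 15 genes past 1.5-fold the same way on both days, the 5 highest and 5 lowest of each day, and any past 1.5-fold in opposite directions. Which list members are named was chosen after their values were seen. Alternatives were 1 matched cell, no matching, at least 2 Tcf21 UMIs, thinning of the chosen cells to 1500 UMIs, equal weight per cell, a stricter cell filter (800 genes or more, 5% mitochondrial UMIs or less), no filter, removal of the deepest 5% of cells, matching within cell cycle states, removal of cells with at least 3 cycle genes, and floors of 25 and 100 CPM. Summing or leaving out barcodes that share 11 bases and leaving out the cells richest in a gene were chosen after the data had been seen.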

Additional observations from a re-analysis of the deposited data

Results flagged for a closer look

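Some values lay on opposite sides of 1 on different days, past 1.5-fold each and with counting intervals that leave out 1. For genes, these are ratios of Tcf21 cells to matched cells. Igfbp5, which binds insulin-like growth factors, had a ratio of 0.40 (0.139–0.944) on day 4, from 6 and 43 UMIs, and 1.55 (1.16–2.05) on day 7, where 48.1% of the UMIs of Tcf21 cells lay in a single cell. Rsad2, an interferon-stimulated gene, had a ratio of 1.77 (1.07–2.87) on day 4 and 0.192 (0.0607–0.469) on day 7, where 94.7% of the 75 UMIs of matched cells lay in a single cell. Srgn had a ratio of 1.59 (1.24–2.03) on day 4, from 106 and 191 UMIs, and 0.410 (0.321–0.518) on day 7, from 81 and 570 UMIs. All 3 genes were under 50 CPM over all cells on at least 1 of the days. The level of Tcf21 in the lowest range of contractile UMI share over that in the highest was 1.75 on day 4 and 2.28 on day 7, and 0.142 on day 14. None of these differences between days was tested, since each day has 1 library.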

How the results depend on the processing

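Pdgfra kept a ratio above 1 on both days in all 13 alternatives (1.37 to 1.62 on day 4, 1.47 to 2.65 on day 7), and its largest move was to 2.65 on day 7 with at least 2 Tcf21 UMIs. Samples could not be paired between days, because each day has 1 library. Causes of the moves below were not tested. Thinning, at least 2 Tcf21 UMIs and removal of cycling cells leave fewer UMIs and so a greater counting error. How many of the added genes past 1.5-fold come from that error was not tested.

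Shares of cells with a Tcf21 UMI on days 4, 7 and 14 were 4.36%, 3.1% and 2.27% after thinning, 2.15%, 1.70% and 1.23% with at least 2 UMIs, 14.6%, 13.6% and 8.82% with barcode groups summed, and 14.7%, 12.7% and 8.53% with them left out. The stricter filter gave 11.9% and 10.5% on days 4 and 7.

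Genes past 1.5-fold higher on day 4 (25 in the main setting) were 47 with 1 matched cell, 159 with at least 2 Tcf21 UMIs, 89 after thinning, 63 without cycling cells, and 65 and 10 at floors of 25 and 100 CPM. On day 7 (27) they were 14 without matching, 154 with at least 2 UMIs, 140 after thinning, 45 with equal weight per cell, 123 without cycling cells, 17 with barcode groups summed, and 71 and 7 at the other floors. On both days (5) they were 3 with 1 matched cell, 42 with at least 2 UMIs, 10 after thinning, 3 with equal weight, 9 without cycling cells, and 14 and 1 at the other floors. Of the 5 genes themselves, 1 was still past 1.5-fold on both days after thinning, 2 without matching, 2 with equal weight, 3 each with 1 matched cell, without the deepest 5% and without cycling cells, and 4 each with at least 2 UMIs, with barcode groups summed and with them left out.

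Genes past 1.5-fold lower on day 4 (20) were 151 with at least 2 UMIs, 105 after thinning, 109 without cycling cells, and 45 and 10 at floors of 25 and 100 CPM. On day 7 (16) they were 182 with at least 2 UMIs, 167 after thinning, 29 with equal weight, 188 without cycling cells, 7 with barcode groups summed, and 43 and 7 at the other floors. On both days (2) they were 4 with 1 matched cell, 1 without matching, 33 with at least 2 UMIs, 6 after thinning, 4 with equal weight, 1 with the stricter filter, 19 without cycling cells, 1 with barcode groups left out, and 6 and 1 at the other floors. Of Lipg and Itga5, neither was still past 1.5-fold on both days after thinning, and 1 of them was without matching, with the stricter filter, without the deepest 5%, without cycling cells, and with barcode groups summed or left out. Both stayed below 1 on both days in all 13 alternatives.

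The median log2 ratio of the adult population's markers on day 4 (0.27) was 0.44 with at least 2 UMIs and 0.44 without cycling cells. On day 7 (0.34) it was 0.24 with 1 matched cell, 0.20 without matching, 0.53 with at least 2 UMIs, 0.24 after thinning and 0.25 with equal weight. That of contractile genes on day 4 (-0.18) was -0.061 with 1 matched cell, -0.11 without matching, -0.051 with at least 2 UMIs and -0.12 with equal weight. That on day 7 (-0.11) was -0.19 with at least 2 UMIs, -0.18 after thinning, -0.22 with equal weight and 0.034 without cycling cells. It was -0.18 both without the deepest 5% of cells and with barcode groups summed. That of G2 and M phase genes on day 4 (0.55) was 0.062 without the deepest 5% of cells and 0.11 without cycling cells. On day 7 (0.39) it was 0.88 with at least 2 UMIs and -0.59 without cycling cells. Cycling cells were picked by genes of the same phases, so their removal decides nothing for this list.

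Of the 49 ratios of named genes that were past 1.5-fold at 50 CPM, 4 lay on the other side of 1 in an alternative. Crabp1 on day 7 was 1.01 with 1 matched cell, Prc1 on day 4 was 0.925 without the deepest 5%, Cenpe on day 4 was 0.742 without cycling cells, and C1qtnf3 on day 7 was 0.918 with at least 2 UMIs. Of 143 other ratios whose intervals leave out 1, 41 did so too, and of 64 whose intervals include 1, 51. On day 7, Acta2 was 1.28 without cycling cells, Cd34 1.07, Ccl2 0.750 and Sfrp1 0.742 with at least 2 UMIs, and Mmp2 0.978 and Ankrd1 1.46 after thinning. Summing or leaving out barcode groups and leaving out the cells richest in a gene were chosen after the data had been seen. Depth limits genes under 50 CPM, for which most cells hold no UMI.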
